A study of Homo sapiens with 6 samples.

Results

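The 37 genes carried by the human mitochondrial genome were examined, that is every row placed on chrM among the 58676 gene rows deposited. They were 13 mRNA genes, 2 rRNA genes and 22 tRNA genes, taken by their position and not by any measured value. Earlier results of these data were known when this set was chosen. RNA sequencing covered 2D-cultured A549 Rec (3 libraries) and A549 MOCK (3 libraries). A549, a long-established line of human lung adenocarcinoma cells, lacks recoverin, a calcium-binding protein of photoreceptors. A549 Rec cells carried a myc-tagged human recoverin cDNA in a retroviral puromycin vector and A549 MOCK cells carried the empty vector, so that both lines had gone through transduction, and the labels give 6 days of culture. The sources used here do not say whether either line was a single clone, or whether the 3 libraries of a group came from separate cultures, so that p-values measure only the spread between these libraries. The study measured mitochondrial respiration and glycolysis in the same lines, and the levels of the respiratory chain genes of the mitochondrion bear on that question at the RNA level.

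The mitochondrial genome is a small circle read in both directions as long precursor RNAs. The tRNAs stand between most of the mRNAs and rRNAs, and cutting the tRNAs out of the precursor sets the other RNAs free. The mRNAs then receive a poly(A) tail, which in several of them also completes the stop codon. All 13 encode core subunits of respiratory complexes I, III, IV and V, and every other protein of the organelle, including the polymerase that copies these genes into RNA, is encoded in the nucleus.

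The values were TPM, which corrects reads for the length of the gene and brings every library to the same total of 1000000, so that a larger mitochondrial part lowers the TPM of every nuclear gene. Where 3 values are given for a group, they stand in the order of replicates 1, 2 and 3. The reads behind them, recovered from the steps in the TPM values, were 15173730 to 18558495 per library, of which 681643 to 1972778 lay on chrM. RCVRN (ENSG00000109047), the gene introduced, had a TPM of 0 in all 3 libraries with the empty vector and stood at 322, 338 and 339 with the recoverin cDNA, which matched the labels (limma, adjusted p = 5.82e-08). Of the 8 markers of A549 and epithelial cells, 7 had a TPM of 92.9 or higher in every library and KRT19 was at or below 0.325. The 10 markers of leukocytes, endothelium and fibroblasts summed to a TPM of 4.68 to 7.25 in A549 MOCK and 5.22 to 6.77 in A549 Rec, with CD3E and COL1A2 at 0 throughout.

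Mitochondrially encoded RNA made up a large and uneven part of every library. The share of the TPM held by the 37 genes was 13.6%, 15.7% and 34.5% in replicates 1, 2 and 3 of A549 MOCK, and 17.3%, 13.3% and 26.9% in those of A549 Rec. Counted as reads, which gives no extra weight to short genes, their shares were 4.25%, 4.97% and 12.9% (A549 MOCK) and 5.57%, 4.17% and 9.48% (A549 Rec). Replicate 3 was far above replicates 1 and 2 in both groups, at 2.36 times their mean in A549 MOCK and 1.76 times in A549 Rec. The groups overlapped, with means of 21.3% ± 11.5 for A549 MOCK and 19.2% ± 6.99 for A549 Rec (SD over 3 libraries), a difference of -2.07 percentage points that was smaller than either SD. Between libraries of the same number, A549 Rec was at 1.27 times A549 MOCK in replicate 1, 0.851 times in replicate 2 and 0.780 times in replicate 3. The difference had the opposite sign without A549 MOCK replicate 3 (4.57 points), without A549 Rec replicate 2 (0.854 points) and without both replicate 3 libraries (0.70 points). In such bulk samples, fewer cells with many mitochondrial transcripts and less mitochondrial RNA per cell cannot be told apart.

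**Figure D1:**
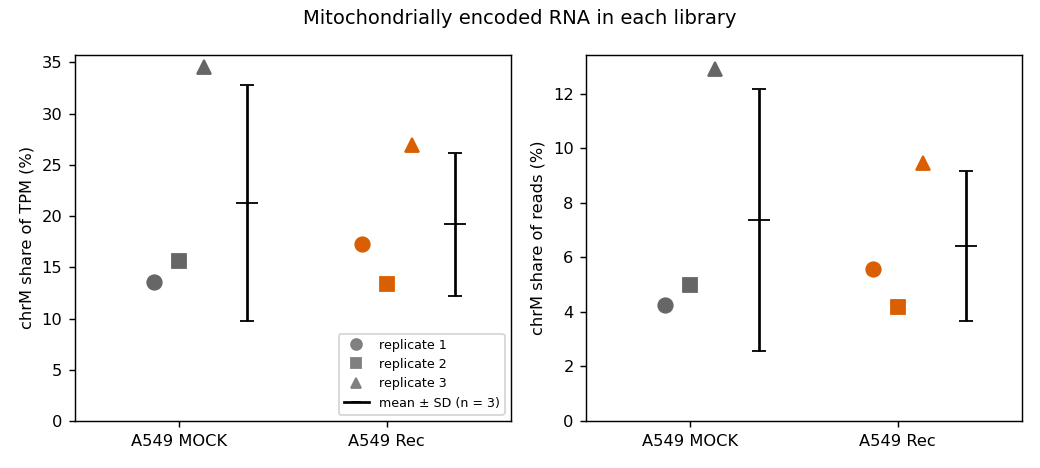
Share of the 37 mitochondrially encoded genes in each library, as a percent of TPM (left) and of reads (right), for A549 MOCK (gray) and A549 Rec (orange), with the replicate number as the marker shape and the mean ± SD of 3 libraries in black. The replicate 3 library is the highest of each group, at 34.5% and 26.9% of TPM, and the 4 other libraries lie between 13.3% and 17.3%.

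Complex IV (cytochrome c oxidase), the enzyme that hands electrons to oxygen, supplied the most abundant mitochondrial mRNAs. MT-CO1, MT-CO2 and MT-CO3 encode its 3 catalytic core subunits and together held 37.96% to 40.8% of the chrM TPM. MT-CO2 (chrM:7586-8269) had a TPM of 18942, 22885 and 48531 for A549 MOCK against 23337, 19376 and 36666 for A549 Rec, and was the highest mRNA in every library but A549 Rec replicate 1. MT-CO1 (chrM:5904-7445), the subunit that binds the heme and copper of the active site, had a TPM of 17558, 20160.1 and 42498 with the empty vector and 22612, 17370.4 and 32919.9 with recoverin. MT-CO3 (chrM:9207-9990) had a TPM of 17639, 20753 and 41050.2 (A549 MOCK) and 24220.1, 17725 and 32613 (A549 Rec). The levels of these 3 genes stayed close to each other in each library, since MT-CO2 was at 1.03 to 1.14 times MT-CO1 and MT-CO3 at 0.966 to 1.07 times MT-CO1. MT-CO2 was above MT-CO1 in every library and MT-CO3 in 4 of 6, by gaps smaller than the SD of each gene between libraries of a group.

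Complex V (ATP synthase) contributes MT-ATP6 and MT-ATP8, subunits of its membrane part. MT-ATP6 (ENSG00000198899, chrM:8527-9207) had a TPM of 15173, 17090.3 and 44243 for A549 MOCK against 19836, 14427 and 30732 for A549 Rec, at rank 4 among the mRNAs in 5 libraries and rank 2 in A549 MOCK replicate 3. MT-ATP8 (ENSG00000228253, chrM:8366-8572) had a TPM of 94.9, 163 and 148 with the empty vector and 135, 103 and 110.0 with recoverin, the lowest of the 13 mRNAs in every library. Both proteins are read from 1 shared mRNA, yet the TPM of MT-ATP6 was 105 to 299 times that of MT-ATP8. MT-ATP8 rested on 99 to 172 reads per library against at least 52047 for MT-ATP6. The genes share the 46 bases chrM:8527-8572 on the same strand, which are 22.2% of MT-ATP8, and the sources used here do not state how a read pair touching more than 1 gene was counted. The TPM of MT-ATP8 stands for the reads assigned to it, and the part of the counting in its low value was not tested. The whole MT-ATP8 gene on the plus strand of hg38, read from the reference genome, is shown with the bases it shares with MT-ATP6 in capitals.
MT-ATP8: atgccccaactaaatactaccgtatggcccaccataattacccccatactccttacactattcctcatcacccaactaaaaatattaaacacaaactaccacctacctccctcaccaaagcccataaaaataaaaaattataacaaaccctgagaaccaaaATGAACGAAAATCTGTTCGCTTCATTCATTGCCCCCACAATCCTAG

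Complex I (NADH dehydrogenase), the entry point of electrons from NADH, takes 7 of the 13 mRNAs and held 27.2% to 28.7% of the chrM TPM. MT-ND4 (chrM:10760-12137) was its highest member and at rank 5 among the mRNAs in all 6 libraries, with a TPM of 12554, 14296 and 33040.0 (A549 MOCK) and 16641, 12123 and 23829.7 (A549 Rec). MT-ND2 (chrM:4470-5511) was at rank 6 in all 6 libraries, with a TPM of 6386, 7209.9 and 18886 for A549 MOCK against 7865, 6189 and 14329.7 for A549 Rec. MT-ND4 and MT-ND2 are both subunits of the proton-pumping membrane arm. MT-ND1 (chrM:3307-4262), next to the site where ubiquinone binds, had a TPM of 5437, 6124 and 14666 with the empty vector and 6220.2, 4912 and 12069.7 with recoverin. MT-ND3 (chrM:10059-10404) had a TPM of 5340.2, 5746 and 10621 (A549 MOCK) and 6600.3, 5334 and 9713 (A549 Rec). MT-ND1, MT-ND3 and MT-CYB changed places between ranks 7 and 9 from library to library, so that their order was not larger than their spread.

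The lower members of complex I were MT-ND4L, MT-ND5 and MT-ND6. MT-ND5 (chrM:12337-14148), the longest of the mRNA genes and a membrane arm subunit, had a TPM of 2879.9, 3246 and 5655 for A549 MOCK against 3486, 2731 and 4958 for A549 Rec. MT-ND6 (chrM:14149-14673), the only mRNA gene read from the minus strand, had a TPM of 2959, 3315 and 6209 with the empty vector and 3576, 2872 and 5701 with recoverin. MT-ND5 was at 0.870 to 0.979 times MT-ND6 in the 6 libraries. MT-ND6 is known as the mRNA without a long poly(A) tail, and here its TPM, a level per length, was above that of MT-ND5 in every library. The gene adjoins the plus-strand MT-ND5, and the strand setting of the counting is not stated. Reads from either strand can thus not be told apart for MT-ND6. MT-ND4L (ENSG00000212907, chrM:10470-10766) had a TPM of 3401, 4207 and 4969 (A549 MOCK) and 4881, 4003 and 4688 (A549 Rec), so that both replicate 3 libraries lay within or close to the range of the others. MT-ND4L and MT-ND4 are known to share 1 mRNA, as MT-ATP8 and MT-ATP6 do, and the TPM of MT-ND4 over MT-ND4L was 3.69, 3.40 and 6.65 for A549 MOCK against 3.41, 3.03 and 5.08 for A549 Rec. The ratio was thus highest in both replicate 3 libraries. The genes overlap by the 7 bases chrM:10760-10766, shown in capitals at the end of the last 60 bases of MT-ND4L (chrM:10707-10766, plus strand, hg38), where the start codon of MT-ND4 lies inside the coding sequence of MT-ND4L.
MT-ND4L end: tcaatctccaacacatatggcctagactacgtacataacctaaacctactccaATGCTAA

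MT-CYB (chrM:14747-15887) encodes cytochrome b, the only mitochondrially encoded subunit of complex III, and had a TPM of 6101, 6998 and 15196 with the empty vector and 7692, 5867 and 11129.7 with recoverin. Its share of the chrM TPM lay between 4.13% and 4.49%. The 5 mRNAs with the highest mean TPM (MT-CO2, MT-CO3, MT-CO1, MT-ATP6 and MT-ND4) together held 58.2% to 61.6% of the chrM TPM in the 6 libraries.

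**Figure D2:**
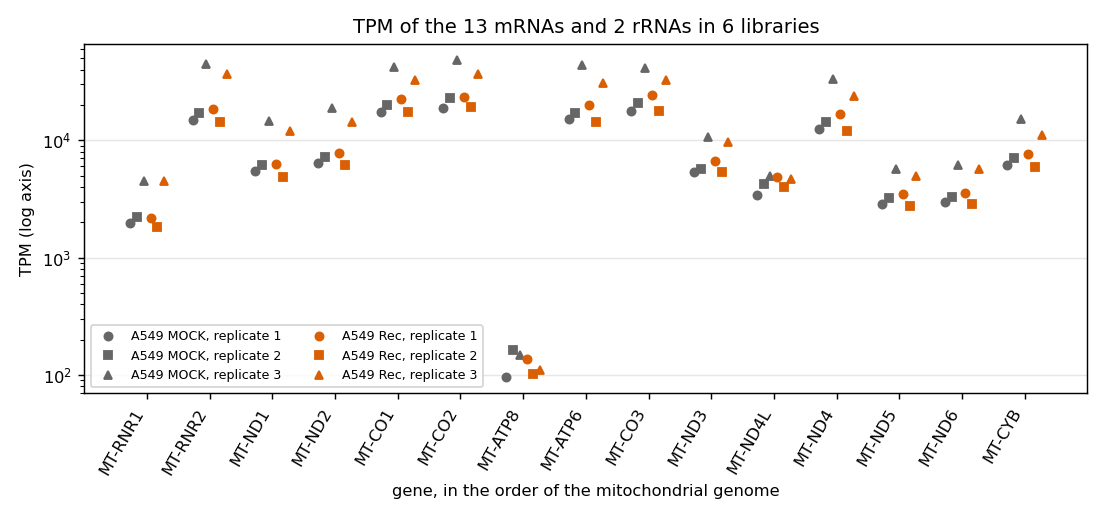
TPM on a log axis of the 13 mRNAs and 2 rRNAs in the order of the genome, with 1 point per library, gray for A549 MOCK and orange for A549 Rec, and the replicate number as the marker shape. Both replicate 3 libraries (triangles) lie above the other 4 for most genes but not for MT-ND4L and MT-ATP8, and MT-ATP8 lies between 94.9 and 163 while the other 12 mRNAs lie at 2731 or higher.

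The 3' ends of the mRNA genes show where the tail forms part of the message. In the reference genome (hg38), 7 of the 13 mRNA genes end in a complete stop codon and 6 (MT-ND1, MT-ND2, MT-CO3, MT-ND3, MT-ND4 and MT-CYB) end in T or TA, which the adenines of the tail complete. The complete stops were TAA (MT-ATP6, MT-ND4L and MT-ND5), TAG (MT-CO2 and MT-ATP8), AGA (MT-CO1) and AGG (MT-ND6). The last 30 bases of 4 genes, which end in TAG, AGA, TA and T, are shown in the sense direction, with the stop codon bases present in the genome in capitals, for MT-CO2 (chrM:8240-8269), MT-CO1 (chrM:7416-7445), MT-ND1 (chrM:4233-4262) and MT-CO3 (chrM:9961-9990), all on the plus strand. The ending AGA of MT-CO1 is a stop in mitochondria and an arginine codon in the nuclear code.
MT-CO2 end: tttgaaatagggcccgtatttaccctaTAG
MT-CO1 end: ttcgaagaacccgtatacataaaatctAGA
MT-ND1 end: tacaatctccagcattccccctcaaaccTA
MT-CO3 end: tgtatgtctccatctattgatgagggtctT
The genes that need the tail ranked between 2 and 9 by mean TPM among the 13 mRNAs. Those with a complete stop codon took the ranks 1, 3 and 4 and 10 to 13.

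Both rRNAs were present, although the methods name a poly(A) selection module, MT-RNR2 within the range of the mRNAs and MT-RNR1 below every mRNA but MT-ATP8 in each library. MT-RNR2 (16S rRNA, large ribosomal subunit, chrM:1671-3229) had a TPM of 14885, 17149 and 45069 (A549 MOCK) and 18489, 14436 and 36642 (A549 Rec). MT-RNR1 (12S rRNA, small subunit, chrM:648-1601) had a TPM of 1955, 2236 and 4478 for A549 MOCK against 2191, 1835 and 4462 for A549 Rec. The 2 genes are neighbours, separated by MT-TV alone, and MT-RNR2 was at 7.61 to 10.1 times MT-RNR1. Their summed share of the chrM TPM was 12.4%, 12.4% and 14.3% with the empty vector and 11.95%, 12.2% and 15.3% with recoverin, highest in replicate 3 of each group.

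Reads assigned to tRNA genes fell almost wholly on the genes of the minus strand. The 8 minus-strand tRNA genes held 12847 of the 13447 tRNA reads of the 6 libraries (95.5%), and the 14 plus-strand genes held 600. Of the 14, 7 (MT-TV, MT-TM, MT-TD, MT-TS2, MT-TR, MT-TG and MT-TL2) were at 0 reads in every library. By counting error alone, this allows up to 3.69 reads per gene over the 6 libraries together (upper end of the 95% interval). Of the same 14, 11 had at most 3 reads in each library. Of the 8 on the minus strand, 6 had more than 3 reads in every library. The exceptions were MT-TN with 1 to 7 reads and MT-TC with 0 to 2. All 22 genes are 59 to 75 bases long, shorter than the 150 bases of a read.

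MT-TP (proline tRNA) had the most reads, 631, 663 and 1751 (A549 MOCK) and 635, 614 and 1406 (A549 Rec), followed by MT-TY (tyrosine), with 504, 539 and 1346 for A549 MOCK against 573, 547 and 1018 for A549 Rec. Both were highest in the replicate 3 library of each group. MT-TQ (glutamine) had 100, 116 and 287 with the empty vector and 145, 101 and 223 with recoverin. MT-TS1 (serine, ENSG00000210151) had 174, 220 and 151 (A549 MOCK) and 271, 210 and 133 (A549 Rec), and was lowest in replicate 3 of both groups. MT-TT (threonine), the highest on the plus strand, had 45, 74 and 130 for A549 MOCK against 53, 67 and 169 for A549 Rec. MT-TE (389 reads in all), MT-TA (80) and MT-TW (52) followed. MT-TP, MT-TS1 and MT-TQ are isolated on their strand, with 1213, 1554 and 1186 bases to the nearest gene on it, whereas MT-TY overlaps MT-TC by 1 base and MT-TE adjoins MT-ND6. Plus-strand genes stand beside or overlap each of them, and although the kit marks strand, the strand setting of the counting is not stated, so that reads from either strand cannot be told apart here.

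The 4 minus-strand genes with the most reads are shown in the sense direction of the tRNA (hg38, minus strand), MT-TP at chrM:15956-16023, MT-TY at chrM:5826-5891, MT-TS1 at chrM:7446-7514 and MT-TQ at chrM:4329-4400. With them stand 2 plus-strand genes without a read, MT-TD at chrM:7518-7585, 3 bases past MT-TS1, and MT-TM at chrM:4402-4469, 1 base past MT-TQ. Capitals mark bases shared with another gene, MT-TC for MT-TY and MT-TI for MT-TQ.
MT-TP: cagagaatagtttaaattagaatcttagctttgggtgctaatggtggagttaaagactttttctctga
MT-TY: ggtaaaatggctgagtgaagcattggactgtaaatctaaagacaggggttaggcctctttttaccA
MT-TS1: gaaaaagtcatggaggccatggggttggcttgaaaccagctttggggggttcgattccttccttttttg
MT-TQ: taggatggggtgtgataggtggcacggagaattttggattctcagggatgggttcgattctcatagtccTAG
MT-TD: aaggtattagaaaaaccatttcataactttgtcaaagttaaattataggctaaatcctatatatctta
MT-TM: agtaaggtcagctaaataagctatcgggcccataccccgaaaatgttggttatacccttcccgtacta

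**Figure D3:**
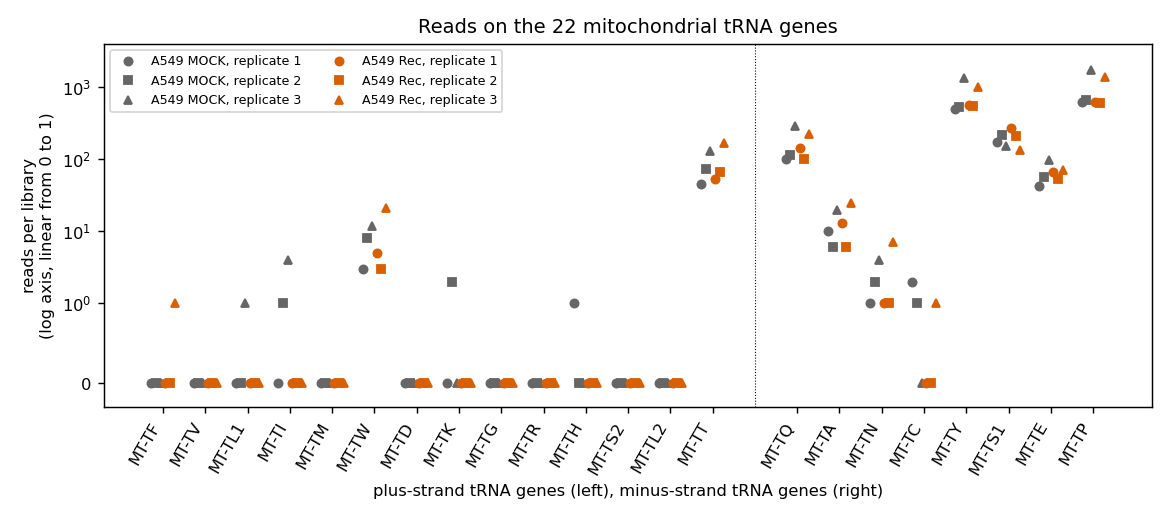
Reads per library on the 22 tRNA genes, on an axis that is linear from 0 to 1 and logarithmic above, with plus-strand genes left of the dotted line and minus-strand genes right of it, gray for A549 MOCK and orange for A549 Rec. On the left only MT-TT (45 to 169 reads) and MT-TW (3 to 21) rise above 4 reads, and on the right MT-TP, MT-TY, MT-TS1 and MT-TQ have 100 reads or more in every library.

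Nuclear copies of mitochondrial genes took a small, steady part of the mitochondria-like signal. Of 407 such rows outside chrM, 35 were above 0 in any library and 9 had a mean TPM of at least 1, and together they held 2.09% to 2.34% of the summed TPM of copies and chrM genes. A single copy, MTATP6P1 (chr1:633696-634376), held 85.5% to 87.2% of it, with a TPM of 2621, 3081 and 7199 with the empty vector and 3388, 2549.9 and 4998 with recoverin. This was 16.3% to 18.0% of MT-ATP6 in each library, so that the copy was high where the mitochondrial gene was high. MTND2P28 followed with a TPM of 386 to 940.1 (4.57% to 6.28% of MT-ND2), MTCO1P12 with 31.5 to 89.6 (0.169% to 0.213% of MT-CO1), and MTCO3P12 and MTND4P12 with at most 7.29 and 4.53. In hg38, MTATP6P1 and MT-ATP6 differ at 10 of 681 bases. Counted from 1 at the first base of MT-ATP6, with the base of MT-ATP6 first, these are G19A, C129T, A151C, A175G, A192G, A334G, C417T, C534A, C549T and C642T. None of the 532 stretches of 150 bases was identical in both, against 15.7% for MTND2P28 and 14.5% for MTCO1P12. Reads can be shared between such copies, how multi-mapping reads were handled is not stated, and the TPM of MT-ATP6, MT-ND2 and MT-CO1 is uncertain to that extent.

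Recoverin overexpression was compared with the empty vector gene by gene. Of the 37 genes, 25 reached a TPM of 1 in 3 or more libraries (all 13 mRNAs, both rRNAs and 10 tRNAs) and entered the test. No DEG (at least 2-fold with an adjusted p under 0.05, limma on log2(TPM + 1)) was found among the 25, where 1 gene of the 17408 tested, RCVRN, was a DEG (0.00574%). By DESeq2 on read counts, the study reported more DEGs at the same fold change and adjusted p thresholds. The count of 1 holds for this limma fit on TPM only. At an unadjusted p under 0.05 in limma, the count was 0 of 25, against 359 of all tested genes (2.06%). The groups did not overlap in TPM for 0 of the 25, against 899 of all (5.16%). The log2 difference, A549 Rec minus A549 MOCK, was above 0 for 6 and below 0 for 19 of the 25, with a median of -0.06 against 0.02 over all tested genes. After quantile normalization these counts were 9 and 16. The 16 include MT-CO1 (-3.36e-15) and MT-ND2 (-1.02e-15), which differ from 0 by rounding only. The counts were 4 and 21 with TPM rescaled without the chrM genes and 22 and 3 without A549 MOCK replicate 3. Without A549 Rec replicate 2 they were 23 and 2, and without both replicate 3 libraries 16 and 9. By the exact permutation test on TPM (two-sided, smallest possible p = 0.1), the p of the 25 genes lay between 0.4 and 1.

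Among the 15 mRNAs and rRNAs the differences were small and their intervals wide. MT-ATP8 was lowest, at -0.19 (SE 0.22, 95% interval -0.72 to 0.33), and MT-ND4L highest, at 0.12 (SE 0.24, 95% interval -0.45 to 0.69). MT-CO1 differed by -0.07 (SE 0.48, 95% interval -1.21 to 1.07) and MT-ATP6 by -0.13 (SE 0.54, 95% interval -1.40 to 1.14). MT-CYB differed by -0.12 (SE 0.44, 95% interval -1.16 to 0.91) and MT-RNR2 by -0.08 (SE 0.58, 95% interval -1.44 to 1.28). The adjusted p of the 15 genes was 0.9997 throughout in limma. The intervals of 8 of the 15 genes included a 2-fold change both upward and downward, so that equal levels were not shown either. With a block for the replicate number, a pairing that the sources do not state, the intervals became narrower. Those of the 15 genes lay within -0.87 to 0.71, so that none reached a 2-fold change if the pairing holds. The adjusted p in limma was then 0.998 and 0 of 25 were called.

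**Figure D4:**
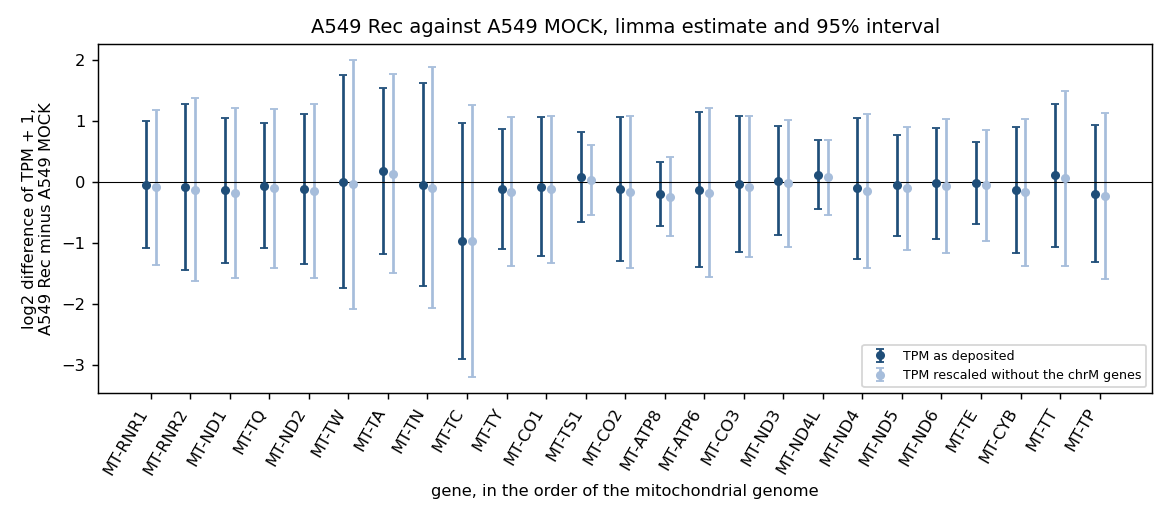
Log2 difference of TPM + 1, A549 Rec minus A549 MOCK, for the 25 tested genes in the order of the genome, as the limma estimate with its 95% interval (3 libraries per group), with TPM as deposited (dark) and rescaled without the chrM genes (light). Every interval includes 0, and the estimates lie between -0.96 (MT-TC, 0 to 2 reads per library) and 0.18 (MT-TA) with TPM as deposited.

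The small mean differences covered opposite differences between same-numbered libraries. In replicate 1, all 15 mRNAs and rRNAs had a higher TPM in A549 Rec than in A549 MOCK, at 1.12 to 1.44 times. In replicate 2, all 15 were lower in A549 Rec, at 0.630 to 0.951 times, and in replicate 3 all 15 were lower again, at 0.695 to 0.996 times. The 15 genes thus moved together within each pair of same-numbered libraries, a pairing the sources do not state, and the direction differed between pairs. These values share the total of their library and are not independent of each other.

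By replicate number, most mitochondrially encoded genes were higher in replicate 3. In A549 MOCK the 15 mRNAs and rRNAs stood at 1.15 to 2.81 times the mean of replicates 1 and 2, with a median of 2.25. In A549 Rec 14 of 15 were higher, at up to 2.23 times with a median of 1.66, and MT-ATP8 was at 0.925 times. Over all tested genes, the median log2 difference of replicate 3 from replicates 1 and 2 was -0.24 for A549 MOCK and -0.15 for A549 Rec. With TPM rescaled without the chrM genes, all 15 were higher in replicate 3 of both groups, and after quantile normalization 13 of 15 in A549 MOCK and 12 of 15 in A549 Rec. The moderated F test of the replicate number in limma gave an adjusted p under 0.05 for 0 of the 25 genes and 0 of the 17408 tested (0%). At an unadjusted p under 0.05 it gave 18 of 25, against 4982 of all tested genes (28.6%). The lowest adjusted p was 0.0816 (MT-TA and MT-TP). The 7 without an unadjusted p under 0.05 were MT-CO1, MT-CO2, MT-CO3, MT-ND4L, MT-ATP8, MT-TE and MT-TC. For MT-CO1, MT-CO2 and MT-CO3 this depended on the setting. Without trend the F test gave them an unadjusted p of 0.0143, 0.0105 and 0.0257, and with rescaling 0.00488, 0.00367 and 0.00852. After quantile normalization, which sets values by rank alone, MT-CO1 was again above 0.05. Its F was 5.46e-27 there, so that this setting left no difference by replicate number and could not test one. With TPM rescaled without the chrM genes, 20 of 25 had an unadjusted p under 0.05, against 3552 of all 17408. In that setting 4 of the 17408 passed the adjusted test, none of them on chrM.

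The makeup of the mitochondrial RNA varied less than its amount for most of the mRNAs and rRNAs, but not for MT-ATP8 and MT-ND4L. The coefficient of variation of the TPM over the 6 libraries had a median of 41.4% among the 15 mRNAs and rRNAs, and that of the share of the chrM TPM a median of 8.30%. The share varied least for MT-CO1 (2.93%, against 39.6% for its TPM) and MT-CYB (2.98%, against 41.4%). It varied more than the TPM for MT-ATP8 (34.7% against 21.6%), MT-ND4L (26.6% against 13.8%) and, among the tRNAs above 3 reads in every library, MT-TS1 (47.6% against 29.8%). The departures that both groups shared fell on replicate 3. The share of MT-RNR2 in the chrM TPM was 10.97%, 10.9% and 13.1% (A549 MOCK) and 10.7%, 10.8% and 13.6% (A549 Rec), highest in replicate 3 of each group. For MT-ND4L it was 2.51%, 2.69% and 1.44% for A549 MOCK against 2.82%, 3.00% and 1.74% for A549 Rec. For MT-ATP8 it was 0.0699%, 0.104% and 0.0429% with the empty vector and 0.0783%, 0.0769% and 0.0409% with recoverin, lowest in replicate 3 of each group, as for MT-ND4L. The share of MT-TS1 was 0.369%, 0.413% and 0.113% (A549 MOCK) and 0.455%, 0.391% and 0.136% (A549 Rec). Its share in replicate 3 was thus 0.289 times the mean of replicates 1 and 2 in A549 MOCK and 0.322 times in A549 Rec. MT-ND2 was also at its highest shares in replicate 3, with 5.47% for A549 MOCK and 5.32% for A549 Rec, and MT-CO3 at its lowest, with 11.9% and 12.1%.

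In TPM, MT-TS1 was the 1 gene above 3 reads in every library that was lower in replicate 3 of both groups, at 0.679 times the mean of replicates 1 and 2 in A549 MOCK and 0.560 times in A549 Rec. MT-ND4L stood at 1.31 and 1.06 times, where its overlapping partner MT-ND4 stood at 2.46 and 1.66 times. Between the groups, the shares overlapped for all 15 mRNAs and rRNAs, and the mean shares of complex IV were 39.6% ± 1.26 for A549 MOCK and 39.8% ± 1.59 for A549 Rec (SD over 3 libraries).

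**Figure D5:**
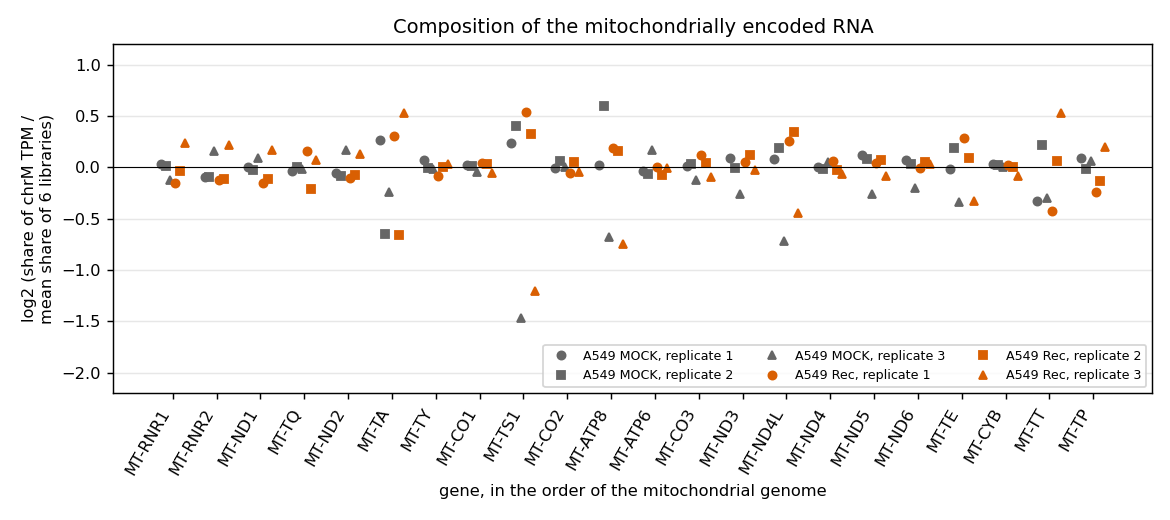
Share of each gene in the chrM TPM of its library, as the log2 ratio to the mean share of the 6 libraries, for the 15 mRNAs and rRNAs and the 7 tRNAs above 3 reads in every library, gray for A549 MOCK and orange for A549 Rec. Most points lie close to 0, and both replicate 3 libraries (triangles) lie well below 0 for MT-TS1, MT-ATP8 and MT-ND4L and above 0 for MT-RNR2 and MT-ND2.

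Other RNAs moved with replicate 3. Per 1000000 of nuclear TPM, so that the chrM share does not enter, NEAT1, a nuclear-retained long RNA, was at 115, 129 and 461 for A549 MOCK against 149, 125 and 226 for A549 Rec. MALAT1, also nuclear-retained, was at 99.2, 116 and 211 with the empty vector and 112, 102 and 108 with recoverin, high in A549 MOCK replicate 3 only. The 8 RNAs without a poly(A) tail, of which 4 were at 0 in every library and RN7SL2 made up nearly all, summed to 229, 301 and 199 (A549 MOCK) and 180.5, 236 and 221 (A549 Rec), and were not highest in replicate 3 of either group. The A549 and epithelial markers summed to 21772, 20726 and 18182 for A549 MOCK against 23654, 23005 and 21191 for A549 Rec, lowest in replicate 3 of each group. ALDH1A1 and AKR1B10 were also lowest there in both groups, but the keratins differed. KRT8 was at 3082, 2929 and 2940 for A549 MOCK against 3248, 3267 and 3352 for A549 Rec. KRT18 was at 3554, 3464 and 3297 for A549 MOCK against 3889, 3878 and 3988 for A549 Rec. Both were thus highest in replicate 3 of A549 Rec. The part of these differences in the replicate 3 values of the mitochondrial genes was not tested, and no batch is named in the labels. The methods name a pair of sequencers without saying which library was read on which.

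The nuclear genes that serve the mitochondrial genome were set beside it. The list of mtDNA expression machinery held 43 genes, all tested, among them POLRMT (the mitochondrial RNA polymerase), TFAM (which packages the genome and starts transcription) and LRPPRC with SLIRP (which keep the mRNAs stable). None of the 43 was a DEG and 1 had an unadjusted p under 0.05, a share near the 2.06% of all tested genes. The median log2 difference was 0.04 against 0.02 over all tested genes. This median was -0.07 without A549 MOCK replicate 3 (-0.06 over all) and 0.10 without A549 Rec replicate 3 (0.07 over all). The 3 genes with the lowest p are given as a description. The lowest was that of MRM1, an rRNA methyltransferase, with a TPM of 0.748, 0.437 and 1.54 with the empty vector and 1.40, 7.19 and 6.54 with recoverin, a log2 difference of 1.51 (SE 0.49) and an adjusted p of 0.9997 in limma. The next by p were TEFM, the elongation factor, at -0.23 (SE 0.13), and TFB1M at -0.27 (SE 0.16). Per 1000000 of nuclear TPM the list summed to 2147 to 2208 in all 6 libraries, with no rise in replicate 3.

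Of the nuclear OXPHOS subunits, which join the mitochondrial ones in the same complexes, 69 of 72 rows were tested and none was a DEG. An unadjusted p under 0.05 was found for 1, no larger a share than the 2.06% of all tested genes. The median log2 difference was 0.07 against 0.02 over all genes. Its sign depended on single libraries. Without A549 MOCK replicate 3 it was -0.15 (-0.06 over all genes), and without A549 Rec replicate 3 it was 0.20 (0.07 over all genes). The lowest p was that of NDUFV2 of complex I, with a TPM of 1.98, 2.25 and 2.89 (A549 MOCK) and 1.11, 1.58 and 1.19 (A549 Rec) and a log2 difference of -0.55 (SE 0.20), and ATP5MG (0.16, SE 0.11) and NDUFA9 (0.15, SE 0.15) followed. Per 1000000 of nuclear TPM the 72 rows summed to 15996, 15997 and 12810.4 for A549 MOCK against 15770.0, 16118 and 14175 for A549 Rec, lowest in replicate 3 of each group, where the mitochondrial subunits were highest. The ratio of the summed TPM of the 13 mitochondrial mRNAs to that of the nuclear subunits was 8.28, 9.80 and 34.1 with the empty vector and 11.3, 8.09 and 21.2 with recoverin. Both kinds of subunit are counted in the same total, so that this ratio, unlike the TPM, does not depend on the scaling, and its groups overlapped.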

How the data were processed

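RNA of 2D-cultured A549 MOCK and A549 Rec (3 libraries each) was sequenced as 150-base read pairs after a poly(A) isolation module and a directional kit. Per the labels and the study's methods, the authors used FastQC 0.11.7, Trimmomatic 0.38, HISAT2 2.1.0 and featureCounts 1.6.3 on GRCh38, and deposited TPM, scaled to 1000000 per library with the mitochondrial genes included. The processing notes also name a mouse build, but all 37 chrM rows matched human GENCODE v44 positions. The annotation release, the strand setting and the treatment of reads with several places are not given in the sources used here. Every column was matched to a sample by its title.

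The members and lists were chosen with earlier results of these data known. All 37 genes are accounted for, with values for mRNAs, rRNAs and the 5 highest tRNAs, the 5 highest nuclear copies, and the 3 lowest p of each list. Reads of the chrM and small RNA genes were recovered as TPM times gene length over the step of 1 read. Of the values of small RNA genes, 2436 of 2436 were whole within 0.01. For all other genes the length was taken as the smallest whole number giving near-whole reads in every library, which was not checked. The total reads per library and the chrM shares of reads rest on these lengths. Floors of 3 reads cover counting error only. Differences were tested on log2(TPM + 1), a scale that understates changes of low genes, with limma 3.58.1 (R 4.3.3; lmFit, and eBayes with trend) for the 17408 genes reaching a TPM of 1 in 3 or more libraries, with Benjamini-Hochberg adjustment over all of them. A DEG was changed at least 2-fold with an adjusted p under 0.05. On simulated data for these genes, 170 of 200 genes changed 3-fold were called, with 3 others. The simulation gave all genes a common spread and no rise in replicate 3, so that it does not give the power for the mitochondrial genes. The replicate number was tested by the moderated F test with the group as a covariate. The numbers, given in the sample descriptions, were taken as pairs, which the sources used here do not state. For each tested gene, the deviation of log2(TPM + 1) from the mean of its group was taken. Between same-numbered libraries these deviations correlated at 0.115, 0.164 and 0.342 for replicates 1, 2 and 3. A549 MOCK replicate 1 reached 0.128 with A549 Rec replicate 2, so that only replicate 3 stood apart. The pairing was thus an assumption drawn from these same data. Shares of the chrM total have no test. The alternatives tried, with their effect, are given in the closing section. Sequences and gene positions came from hg38 and GENCODE v44.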

Additional observations from a re-analysis of the deposited data

How the results depend on the processing

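No mitochondrially encoded gene was called between A549 Rec and A549 MOCK under any alternative run, namely a pseudocount of 0.1, no filter, TPM rescaled without the chrM genes, quantile normalization, limma without trend, no fold change threshold, the replicate block alone or with rescaling, leaving out each library in turn, and leaving out both replicate 3 libraries, with or without rescaling (the last 2 chosen after seeing the data). With the replicate block the count was 0 and the block changed no other call. It cannot move a difference of means in a balanced design, so that the -2.07 points of the chrM share under the block say nothing of stability. Over all genes, 1 was called, against 6 without the filter, 6 without trend, 2 without both replicate 3 libraries (rescaled, 2), and 1 to 2 when single libraries were left out (2 without A549 Rec replicate 2). Under quantile normalization 7 of the 17408 tested genes (0.0402%) passed the moderated F test of the replicate number in limma. Among them was 1 mitochondrial gene, MT-ND2 (adjusted p = 0.0483). Values there are set by rank alone, so that the spread left in them is not that of the TPM. The difference in the chrM share ran from -5.94 to 4.57 points when single libraries were left out, and was above 0 without A549 MOCK replicate 3 (4.57) or A549 Rec replicate 2 (0.854). It was 0.70 without both replicate 3 libraries, -0.98 as a share of reads, -1.76 for the mRNAs alone and -2.15 with the nuclear copies added, an alternative chosen after seeing the data. In 148 recalculations of the 15 genes' shares of the chrM total, 0 moved the difference by more than 1 SD. Most of them could not have done so, and the count says little of stability. Leaving out 1 of 3 libraries cannot move a group mean by 1 SD, and the replicate block cannot move it at all.

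The sign of the uncalled log2 differences of the 15 mRNAs and rRNAs depended on these choices, and the cause was not tested. It turned under quantile normalization for MT-RNR2 0.0529, MT-CO3 0.0290, MT-ND4 0.0357 and MT-ND6 0.0529, and with rescaling, without or with the replicate block, for MT-ND3 (-0.0217 in both). Without both replicate 3 libraries it turned for MT-RNR2 0.0322, MT-ND2 0.0401, MT-CO1 0.0751, MT-CO2 0.0305, MT-ATP6 0.0711, MT-CO3 0.11, MT-ND4 0.0844, MT-ND5 0.0133, MT-ND6 0.0330 and MT-CYB 0.0400, and, rescaled as well, for MT-RNR2 0.0443, MT-ND2 0.0522, MT-CO1 0.0872, MT-CO2 0.0426, MT-ATP6 0.0832, MT-CO3 0.13, MT-ND4 0.0965, MT-ND5 0.0254, MT-ND6 0.0451 and MT-CYB 0.0521. Over the fits that leave out 1 library, the values ran from -0.43 to 0.32 for MT-RNR1, -0.47 to 0.42 for MT-RNR2, -0.51 to 0.31 for MT-ND1, -0.45 to 0.39 for MT-ND2, -0.32 to 0.32 for MT-CO1, -0.39 to 0.29 for MT-CO2, -0.41 to 0.36 for MT-ATP6, -0.28 to 0.33 for MT-CO3, -0.21 to 0.34 for MT-ND3, -0.0206 to 0.25 for MT-ND4L, -0.36 to 0.33 for MT-ND4, -0.28 to 0.24 for MT-ND5, -0.30 to 0.31 for MT-ND6 and -0.38 to 0.28 for MT-CYB. The turns came mostly without A549 MOCK replicate 3 or A549 Rec replicate 2 (12 of 15 genes each). MT-ATP8 kept its sign throughout.

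Limits of depth fall on MT-ATP8, MT-TE, MT-TA, MT-TN, MT-TC and the plus-strand tRNAs, which rest on few reads. Shared reads with nuclear copies, the treatment of read pairs over gene borders and the strand setting are not resolved by these values. The intervals of 8 of the 15 mRNAs and rRNAs include 2-fold changes both ways without the replicate block. None of the 15 does with it, but the block assumes pairs that the sources do not state.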
